A study of Arabidopsis thaliana with 10 samples.

Results

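The change in shoot transcripts between 3 and 6 hr of dexamethasone (DEX) is described here from 4 of the 10 arrays of a time course, the 2 arrays of 6 hr set against the 2 arrays of 3 hr. The arrays were chosen by their labelled time alone. All plants were Arabidopsis thaliana of the shr-2 mutant carrying pSHR:SHR-GR, a fusion of SHORT-ROOT (SHR) to the glucocorticoid receptor driven by the SHR promoter, and whole shoots were sampled. The 6 hr and the 3 hr groups had received 10 µM DEX at 10 days after germination (DAG). The 12 hr group had the same start, and the 24 hr group received DEX at 9 DAG. The 0 hr control carried the same transgene and mutation without DEX. Seedlings grew on half-strength MS medium under a day of 16 h light and 8 h dark at 22 °C, and each time had 2 samples that the design text calls biological replicates. The hour of the day at harvest is not given in the sources used here and no mock-treated array accompanies a DEX time, so the 3 hr between these groups and the daily cycle cannot be told apart from DEX itself.

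SHR is a GRAS-family transcription factor best known for directing the radial pattern of the root, and it is also active in the shoot around the veins. Fused to the receptor it stays in the cytoplasm until DEX lets it enter the nucleus, so successive times can separate an early set of transcripts from a later one. Among the responses that shoots run on a scale of hours, jasmonate output follows wounding, the CBF regulon of COR and dehydrin genes follows cold or drying, SnRK1 kinase signalling follows darkness and sugar shortage, and touch raises calcium-sensor and WRKY transcripts within minutes. These are background and not results.

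Between 3 and 6 hr 2080 of 22746 probe sets changed (9.14%; limma, adjusted p under 0.05). At 6 hr 1173 were higher than at 3 hr (5.16%) and 907 were lower (3.99%). A change of 2-fold or more was seen for 266 of the rises and 100 of the falls. The higher calls had a median log2 fold change of 0.65 and reached 2.94, and the lower calls had a median of -0.46 and reached -2.50. The median over all probe sets was -0.03. The share of calls that were higher was 56.4%, and it was 41.9% when all arrays were set to one median, with 965 higher and 1337 lower. At 5.86 prior and 5 residual degrees of freedom the fit borrows much of its error from other probe sets and other times, since with 2 arrays a time the smallest p of an exact permutation is 0.33. Each of the 4 arrays moved the total by over 1.5 times. It came to 959 and 1126 when the first or the second 6 hr array was left out, and to 1167 and 1199 when the first or the second 3 hr array was. The 2 arrays of 6 hr correlated at 0.9909 across probe sets and the 2 of 3 hr at 0.9858, against 0.9803 to 0.9819 between the times.

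The probe table names 1 gene for 578 of the higher and 455 of the lower calls. The other 1047 called probe sets have no single gene name here. That table does not list 8730 of the 22746 probe sets. The gene groups below therefore cover only named genes, and their counts and medians may stand for part of a family or pathway. All groups were assembled with earlier results of these data known. Their counts and medians are therefore not independent evidence of a direction. A gene is called measured where a probe set names it alone. Taking the brightest probe set of each named gene, 4.28% of 13356 genes were higher and 3.41% lower, with a median of -0.04, and these shares are the background for the gene groups below. A signal under 44.8, the lowest 30% of probe sets by mean, is called dim. Dim probe sets held 102 of the 2080 calls. The background shares are therefore likely too low for groups without dim members, which include the starvation, ER folding, RNA polymerase and plastid groups. At the other end, the brightest 1% of probe sets (227, with mean signals from 9265 upwards) held 47 lower calls and 1 higher call, with a median of -0.22, but 8 lower and 6 higher with a median of 0.01 after quantile normalization. The 100 brightest probe sets held 10.2% of the summed signal on each 6 hr array and 11.9% on each 3 hr array. Small changes of such bright genes therefore depend on the scaling.

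**Figure D1:**
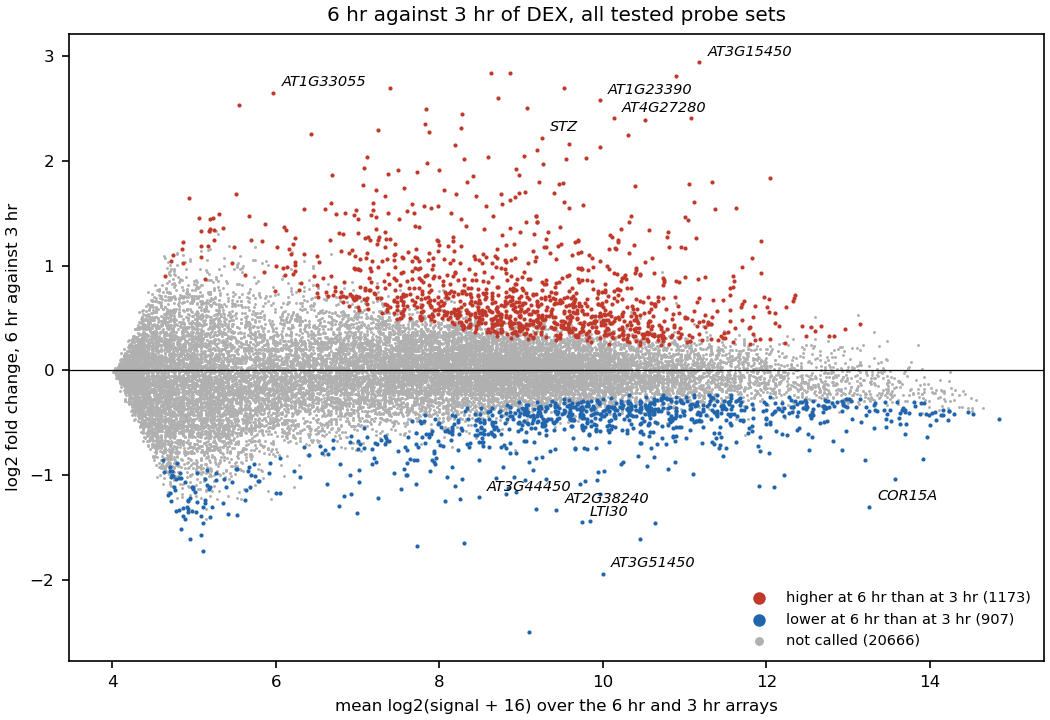
Log2 fold change of every tested probe set at 6 hr against 3 hr (vertical axis) over its mean log2(signal + 16) on the 4 arrays (horizontal axis), with the 1173 higher and 907 lower calls coloured. The higher calls extend to 2.94 and the lower ones to -2.50, and the brightest probe sets lie mostly just below 0.

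The samples carried the transcripts of green tissue at both times. Of 5 shoot markers measured, the Rubisco activase gene RCA, the antenna genes LHCB4.1, LHCB4.2 and LHCB4.3 and the protochlorophyllide reductase gene PORB, 0 passed the test by limma and 2 had an unadjusted p under 0.05. RCA had signals of 19141 and 18805 at 6 hr and 24444 and 23879 at 3 hr, a log2 difference of -0.35 that was -0.03 after quantile normalization. The median of the 5 markers was -0.19, and 0.03 after quantile normalization. Among 3 root markers, EXPA7, an expansin of root hairs, was dim at 1.83 and 6.2 at 6 hr and 2.79 and 11 at 3 hr. EXPA18, its close relative, had signals of 30.8 and 10 at 6 hr and 68.3 and 51.5 at 3 hr, and its call as lower was lost in 3 of the 4 fits that left out 1 of these arrays and after quantile normalization. PYK10, a beta-glucosidase of the ER bodies of roots and hypocotyls, stood at 9146 and 10598 at 6 hr and 10409 and 8855 at 3 hr, so it was bright at both times and the times overlapped. CLV3, a stem cell marker of the shoot apex, was dim at 4 and 4.13 at 6 hr and 3.2 and 17.5 at 3 hr. Whole shoots mix many cell types, and more cells of a type cannot be told apart from more RNA per cell.

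Of 3 genes listed as targets or partners of SHR in the root, 0 passed the test between these times by limma, and 0 had an unadjusted p under 0.05. AT5G41920, the GRAS gene SCL23, had signals of 216 and 225 at 6 hr and 218 and 174 at 3 hr. JKD, a zinc-finger partner of SHR in the root, was dim at 31.4 and 35.5 at 6 hr and 8.81 and 32.9 at 3 hr. SLY2, an F-box gene of gibberellin signalling, stood at 64.2 and 71.9 at 6 hr and 83.4 and 66.2 at 3 hr. The arrays of SLY2, JKD and AT5G41920 overlapped between the times, with log2 differences of -0.11, 0.51 and 0.17 (limma, adjusted p = 0.847, 0.546 and 0.539), so no difference was detectable with 2 arrays a time. SHR itself is not analysed here.

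The 12 largest falls of the naming rule included 2 genes of the cold and dehydration list, LTI30 and COR15A, and 1 of the jasmonate list, AT2G38240. AT3G51450, a strictosidine synthase-like gene, had signals of 460 and 552 at 6 hr and 2213 and 1783 at 3 hr. Both 6 hr arrays lay far below both 3 hr arrays and near the 0 hr control, at 327 and 388. It fell by 1.94 on the log2 scale (SE 0.16; limma, adjusted p = 3.46e-05), the largest fall among the genes of the naming rule, and its signals at 12 hr, 391 and 426, and at 24 hr, 463 and 328, stayed in that range. AT3G28220, which encodes a TRAF-like protein, had signals of 809 and 773 at 6 hr and 2602 and 2295 at 3 hr, against 80.2 and 98.8 in the control. It fell by 1.61 (SE 0.17) and still stood well above the control arrays at 6 hr. AT1G54020, a GDSL lipase gene, had 157 and 168 at 6 hr and 555 and 532 at 3 hr, a fall of 1.65 (SE 0.16). AT2G34930, a leucine-rich repeat gene of the disease-resistance type, had 93.8 and 111 at 6 hr and 378 and 349 at 3 hr, a fall of 1.68 (SE 0.21). The naming rule takes only genes whose times do not overlap, so their separation is not further support. Each of these genes kept its call in all 4 fits without 1 array.

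Jasmonate is a lipid-derived hormone of wounding, and its oxidases and methyltransferases are both its targets and its brakes. Of 10 jasmonate genes measured 4 fell, 0 rose and 6 did not pass, with a median of -0.41. AT2G38240, a 2-oxoglutarate-dependent oxygenase that hydroxylates jasmonic acid, had 413 and 429 at 6 hr and 1119 and 1042 at 3 hr, against 52.1 and 71 in the control. It fell by 1.33 (SE 0.15; limma, adjusted p = 0.000231). As a member of the 12 largest falls, it was required to have no overlap between the times. AT5G05600, another jasmonate oxygenase, fell by less, with 1409 and 1426 at 6 hr and 1751 and 1968 at 3 hr (log2 fold change -0.39, SE 0.09), against 191 and 196 in the control. JRG21, of the same enzyme family, did not pass, with 822 and 747 at 6 hr and 912 and 866 at 3 hr (log2 fold change -0.18; limma, adjusted p = 0.563). The oxygenases thus spread from -1.33 to -0.18, though their differences from one another were not tested. BSMT1, a methyltransferase that makes methyl salicylate, was dim, with 21.7 and 22.4 at 6 hr and 55.6 and 65.7 at 3 hr. The thionin gene THI2.2 had 298 and 305 at 6 hr and 445 and 413 at 3 hr, against 502 and 536 in the control, so its order was control, 3 hr and 6 hr from high to low. With any 1 of the 4 arrays left out there were 1 or 2 jasmonate calls, and only AT2G38240 kept its call in every such fit.

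The cold and dehydration group also held only falls among its calls. Of 11 genes measured there were 4 falls and 0 rises, and 7 did not pass, with a median of -0.28, and 10 of the 11 values were negative. This direction holds for the listed genes only. COR27 and COR28, which carry the COR name, and the drought-inducible HIS1-3 were counted in other lists and rose. COR15A, which protects chloroplast membranes in the cold, had 5661 and 6769 at 6 hr and 16634 and 13994 at 3 hr, against 971 and 1054 in the control. It fell by 1.30 (SE 0.15; limma, adjusted p = 0.000357), and by 1.13 after quantile normalization. COR15B, its close relative, had 2958 and 2941 at 6 hr and 6558 and 6254 at 3 hr, a fall of 1.11 (SE 0.13). Probe sets of such close relatives may share signal, and their part in the result was not tested. LTI30, a dehydrin, had 491 and 508 at 6 hr and 1306 and 1495 at 3 hr, a fall of 1.45 (SE 0.16). COR47, another dehydrin, fell by 0.37 (SE 0.08), a call that 3 of the 4 leave-one-out fits did not keep. The arrays of all 4 at 6 hr also stood above the control, COR47 at 2476 and 2461 against 1837 and 1701. At 12 hr COR15A was at 1406 and 1646 and LTI30 at 165 and 198, and their test against the control gave adjusted p = 0.109 and 0.064 by limma. The 7 that did not pass were late-embryogenesis-abundant and dehydrin-type genes. AT1G54410, a dehydrin gene among them, had 13243 and 13122 at 6 hr and 13047 and 14358 at 3 hr, so the times overlapped.

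Genes of protein folding in the endoplasmic reticulum (ER) fell by smaller steps. Of 10 measured 4 fell, 0 rose and 6 did not pass, with a median of -0.13. CRT1b, a calreticulin that holds unfolded glycoproteins, had 2744 and 2897 at 6 hr and 4137 and 4452 at 3 hr, against 2632 and 2557 in the control. It fell by 0.60 (SE 0.08; limma, adjusted p = 0.000823) to the range of the control. ATERDJ3B, a J-domain co-chaperone of BiP, had 1933 and 1780 at 6 hr and 2717 and 2525 at 3 hr, a fall of 0.49 (SE 0.08). AT5G07340, a calnexin, and OS9, a lectin of ER-associated degradation, fell by 0.34 and 0.30, and each lost its call in all 4 fits without 1 array. The 3 membrane-bound transcription factors of the unfolded-protein response, BZIP17, BZIP28 and BZIP60, did not pass, at -0.12, 0.03 and 0.24.

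Subunits of the nuclear RNA polymerases, a list built on gene names, held 4 falls as well. Of 12 measured 4 fell, 0 rose and 8 did not pass, with a median of -0.11. NRPA2, the second-largest subunit of RNA polymerase I, which transcribes the ribosomal RNA genes, had 520 and 566 at 6 hr and 747 and 759 at 3 hr, against 527 and 539 in the control. Its fall was 0.46 (SE 0.09). NRPA1, the largest subunit of the same enzyme, had 326 and 308 at 6 hr and 428 and 453 at 3 hr. Both fell back to or close to the control. NRPB6A and NRPB7, small subunits of polymerase II, fell by 0.44 each. With any 1 of the 4 arrays left out there was 1 call in this list, and none of the 4 falls kept its call in every such fit.

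Other leading falls of the naming rule belonged to no group above. AT3G44450 (BIC2), whose product inhibits the cryptochrome blue-light receptors, had 221 and 217 at 6 hr and 504 and 550 at 3 hr, against 767 and 803 in the control. It fell by 1.21 (SE 0.09; limma, adjusted p = 1.13e-05) and stood farther from the control at 6 hr than at 3 hr. AT2G44940, an AP2/ERF-family transcription factor gene, had 156 and 159 at 6 hr and 347 and 455 at 3 hr, against 317 and 379 in the control. AT1G48100, a polygalacturonase gene of the pectin matrix, had 99.3 and 70.1 at 6 hr and 233 and 201 at 3 hr, against 198 and 197 in the control. In both, 3 hr and the control lay in one range and 6 hr stood below. MSRB6, a methionine sulfoxide reductase, fell by 1.23, and 1 of the 4 leave-one-out fits did not call it. The expansin gene EXPA16 had 297 and 268 at 6 hr and 642 and 679 at 3 hr, and none of the 4 called it.

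**Figure D2:**
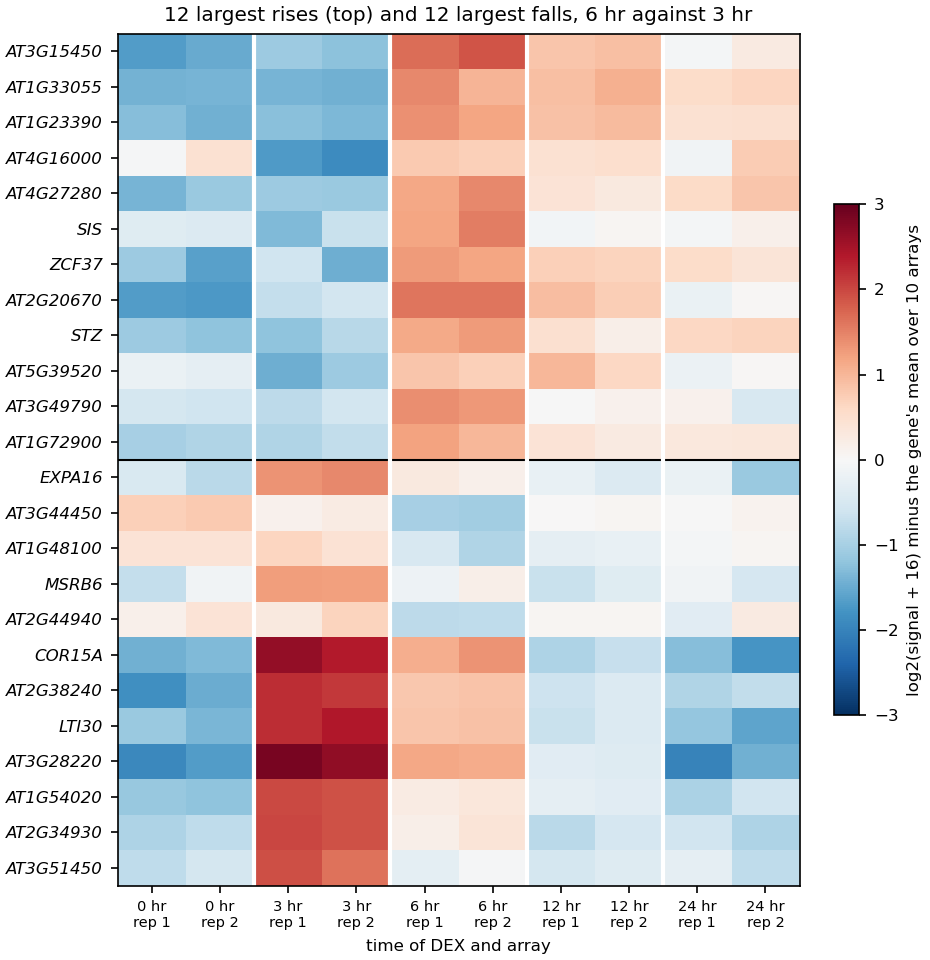
Colour shows log2(signal + 16) minus the mean of the gene over the 10 arrays. Rows are the 12 largest rises (above the line) and the 12 largest falls (below it) of the naming rule, 6 hr against 3 hr. Columns are the arrays from 0 to 24 hr. COR15A, LTI30 and AT3G28220 are highest on the 3 hr arrays, and AT3G15450, AT1G23390 and STZ are highest on the 6 hr arrays.

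The 12 largest rises of the naming rule included 3 genes of the darkness and sugar starvation list, AT3G15450, AT1G23390 and AT2G20670. Of the 15 genes on that list 13 rose, 1 fell and 1 did not pass, with a median of 0.82. The list held 11 to 13 calls when any 1 of the 4 arrays was left out, and 11 genes kept their call in each such fit. The list was assembled with earlier results of these data known, so its count is not independent evidence of its direction. AT3G15450, an aluminium-induced-like protein gene, had 5997 and 6864 at 6 hr and 869 and 782 at 3 hr, against 575 and 637 in the control. It was 7.66-fold higher at 6 hr on the log2(signal + 16) scale (log2 fold change 2.94, SE 0.11; limma, adjusted p = 1.26e-07). AT1G23390, a Kelch-repeat F-box gene whose product marks chalcone synthase for degradation, had 2582 and 2285 at 6 hr and 405 and 380 at 3 hr, against 398 and 353 in the control. It was 5.99-fold higher, with 3 hr still at the level of the control. AT2G20670 had 2771 and 2744 at 6 hr and 535 and 602 at 3 hr, against 269 and 260 in the control, and was 4.75-fold higher. AT3G15630 had 2575 and 2320 at 6 hr and 803 and 631 at 3 hr, against 926 and 921 in the control. All 4 genes had both 6 hr arrays far above every 3 hr and control array.

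Some regulators and recycling genes of that group also rose. AKINBETA1, a beta subunit of SnRK1, had 801 and 853 at 6 hr and 338 and 436 at 3 hr, against 354 and 341 in the control, a rise of 1.08 (SE 0.11). BZIP53, a transcription factor of the low-energy response, had 3011 and 2652 at 6 hr and 1791 and 1788 at 3 hr, a rise of 0.65 (SE 0.07). ATG8E, a ubiquitin-like protein of autophagosomes, had 1289 and 1126 at 6 hr and 510 and 586 at 3 hr, a rise of 1.12 (SE 0.14). In these 3 genes the 3 hr arrays lay at or near the control and the 6 hr arrays above both. Among 11 autophagy genes measured 2 rose, 0 fell and 9 did not pass, with a median of 0.08 and a highest value of 1.12. GAT1_2.1, a glutamine amidotransferase, had 151 and 176 at 6 hr and 45.4 and 40.7 at 3 hr, a rise of 1.6 (SE 0.28), whereas its other probe set, which was dim, was not called at -0.53. SAG29, a sugar exporter of the SWEET family, had 383 and 332 at 6 hr and 181 and 208 at 3 hr, against 437 and 433 in the control. AT1G22160 had 1206 and 1202 at 6 hr and 720 and 825 at 3 hr, against 1907 and 1709 in the control. Those 2 genes were thus lowest at 3 hr, and their rise brought them towards or part of the way to the control. MCCA and MCCB, the subunits of methylcrotonyl-CoA carboxylase in leucine breakdown, rose by 0.56 and 0.45, with calls lost in 3 and 1 of the leave-one-out fits, and IVD, the dehydrogenase one step earlier, did not pass at 0.14. MGL, methionine gamma-lyase, had 482 and 479 at 6 hr and 690 and 669 at 3 hr and was the member that fell, by 0.49, a call lost in all 4 fits without 1 array.

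Touch and early defence genes held only rises among their calls. Of 8 measured 5 rose, 0 fell and 3 did not pass, with a median of 0.91, and 3 or 4 were called when 1 of the 4 arrays was left out. AT4G27280, a calcium-binding EF-hand protein gene, had 2311 and 2839 at 6 hr and 475 and 465 at 3 hr, against 378 and 469 in the control. It rose 5.3-fold (log2 fold change 2.41, SE 0.12; limma, adjusted p = 8.91e-07). STZ, a zinc-finger repressor of stress genes, had 1235 and 1362 at 6 hr and 232 and 305 at 3 hr, against 251 and 230 in the control, a rise of 2.22 (SE 0.13). WRKY53, a transcription factor of senescence and defence, had 294 and 332 at 6 hr and 101 and 97.1 at 3 hr, against 104 and 94.4 in the control. In these 3 genes the 3 hr arrays lay near the control and both 6 hr arrays stood above all of them. CML38, a calmodulin-like sensor, had 161 and 185 at 6 hr and 86.3 and 63.7 at 3 hr, against 33.2 and 31.7 in the control, so the 3 hr arrays lay between the control and 6 hr. Its call was lost in 2 of the leave-one-out fits. The ubiquitin ligase gene PUB24 rose by 0.65, a call that no leave-one-out fit kept and that was also lost under quantile normalization and under one median for all arrays. Its relatives PUB23, at 0.77, and PUB22, at -0.08, did not pass, and neither did CML37, at 0.31.

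The calcium sensors did not move as one. Of 8 measured 2 rose, CML38 and CML41, 1 fell and 5 did not pass, with a median of 0.25. The gene that fell, AT1G76640, encodes a calmodulin-like protein and carries the locus number just before that of CML38, AT1G76650. AT1G76640 had 3.03 and 2.98 at 6 hr and 38.4 and 56.3 at 3 hr, against 2.59 and 4.41 in the control. It fell by 1.72 (SE 0.24), and all its signals outside 3 hr were at most 4.41, far into the dim range, so the size of the change depends on the offset of 16. CML41 had 186 and 189 at 6 hr and 124 and 110 at 3 hr, a rise of 0.62 that was lost in all 4 fits without 1 array.

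Genes that respond to low oxygen held mostly rises among their calls. Of 9 measured 6 rose, 1 fell and 2 did not pass, with a median of 0.91, and leaving out any 1 of the 4 arrays left 3 or 4 calls. AT1G33055, a short protein gene that hypoxia induces, had 165 and 119 at 6 hr and 9.33 and 8.48 at 3 hr, against 9.05 and 9.23 in the control. It rose by 2.65 (SE 0.22; limma, adjusted p = 3.19e-05) from a dim level, so this size also rests on the offset. AT3G10040, a trihelix transcription factor known as HRA1, had 207 and 157 at 6 hr and 39.8 and 36.2 at 3 hr, against 54.7 and 50.3 in the control, a rise of 1.86 (SE 0.20). AT4G10270, of the wound-responsive protein family, had 637 and 574 at 6 hr and 181 and 181 at 3 hr, against 248 and 255 in the control. It rose by 1.66 (SE 0.11). The times did not overlap in any of these 3 genes, which the naming rule required of AT1G33055. AT4G33560, AT4G24110 and AT3G27220 rose by 0.95, 0.91 and 0.86, and their calls were lost in 3, 4 and 2 of the 4 fits without 1 array. Of the enzymes of fermentation, PDC2, pyruvate decarboxylase, had 1545 and 1498 at 6 hr and 1818 and 1835 at 3 hr and fell by 0.26, a call lost in all 4 fits without 1 array, and the lactate dehydrogenase gene AT4G17260 stood at 0.37 and did not pass.

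**Figure D3:**
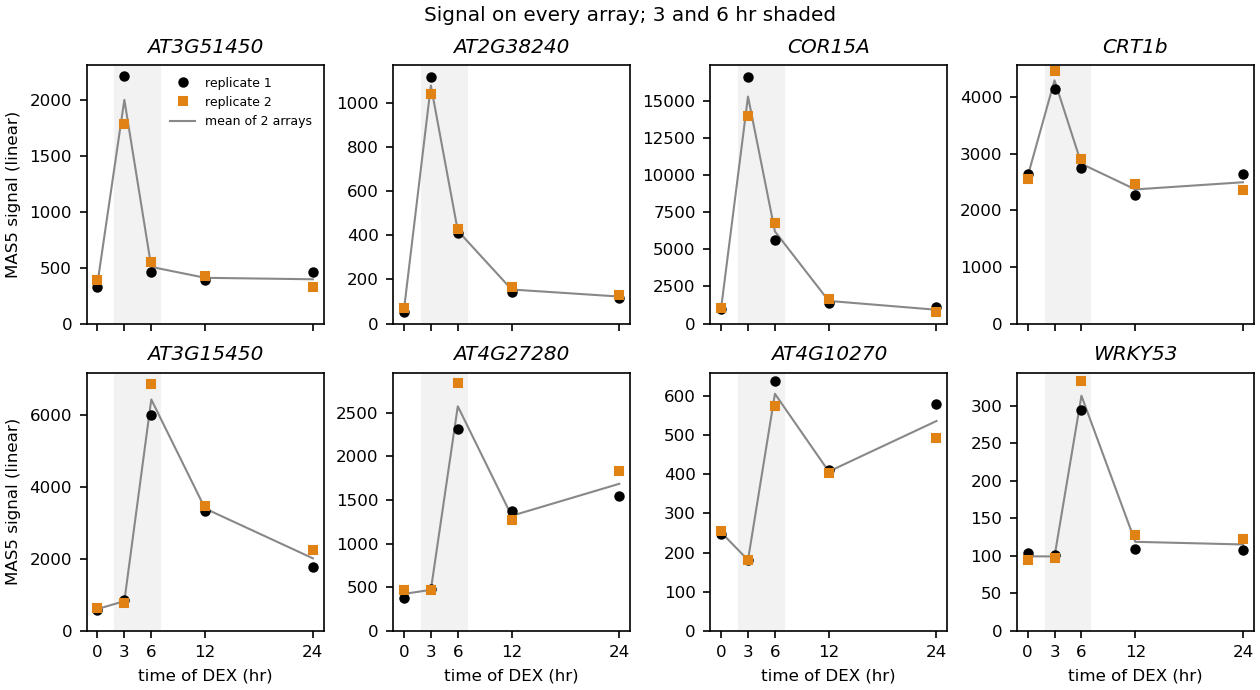
MAS5 signal (linear scale, from 0) of 8 genes on every array against the time of DEX, with replicates 1 and 2 as separate symbols and a line through their means. AT3G51450, AT2G38240, COR15A and CRT1b are highest at 3 hr, and AT3G15450, AT4G27280, AT4G10270 and WRKY53 at 6 hr.

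Transcription factor families contributed a few genes each, and WRKY53 and BZIP53 were also counted in the touch and starvation groups above. Of 7 WRKY genes measured 3 rose, 0 fell and 4 did not pass, with a median of 0.33. WRKY22, which acts in immune and submergence responses, had 242 and 247 at 6 hr and 103 and 85 at 3 hr, against 142 and 125 in the control, and rose by 1.25 (SE 0.15). WRKY6, a regulator of senescence and phosphate uptake, had 128 and 144 at 6 hr and 62.3 and 76.2 at 3 hr, a rise of 0.84 that was lost in 3 of the 4 fits without 1 array. Of 22 bZIP genes BZIP53 and BZIP61 rose, 0 fell and 20 did not pass, with a median of 0.18. Values in this family ran from -1.01 to 1.33, both in genes that did not pass, and 6 of the 22 were dim. BZIP61 had 372 and 404 at 6 hr and 179 and 215 at 3 hr, against 190 and 221 in the control, a rise of 0.93 (SE 0.16). Of 7 bHLH genes measured, several of them regulators of iron uptake, 2 rose. BHLH101, an iron-deficiency factor, had 202 and 181 at 6 hr and 57.8 and 58.6 at 3 hr, against 28.6 and 57 in the control, and rose by 1.48 (SE 0.23). bHLH121, which acts upstream of it, had 490 and 528 at 6 hr and 358 and 332 at 3 hr, a rise of 0.54 that was lost in 3 of the 4 fits. The other 5 bHLH genes, ILR3, bHLH34, bHLH104, bHLH115 and AT1G22490, lay between -0.18 and 0.14.

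AT1G72900, the twelfth of the largest rises under the naming rule, encodes a TIR-domain protein of the disease-resistance type. It had 1005 and 873 at 6 hr and 220 and 252 at 3 hr, against 207 and 222 in the control, and rose by 1.92 (SE 0.11; limma, adjusted p = 1.9e-06). The genes with nearby locus numbers were looked up after this value was seen. AT1G72940 had 918 and 962 at 6 hr and 267 and 289 at 3 hr, against 201 and 194 in the control, a rise of 1.70 (SE 0.10). AT1G72920 had 764 and 850 at 6 hr and 256 and 243 at 3 hr, against 296 and 266 in the control, a rise of 1.63 (SE 0.10). These 3 genes were separated between the times by similar steps and kept their calls in all 4 fits without 1 array. The genes on either side did not pass, AT1G72890 with 80.4 and 88.4 at 6 hr and 85.2 and 107 at 3 hr, and AT1G72950 with dim signals of 35.1 and 29.4 at 6 hr and 33.3 and 42.7 at 3 hr. TIR genes of one stretch can be close in sequence, and the part of shared hybridisation in the result was not tested.

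The remaining leading rises of the naming rule have few known roles. SIS, a salt-induced serine-rich protein gene, had 434 and 562 at 6 hr and 63.7 and 109 at 3 hr, against 140 and 134 in the control. AT5G39520 had 276 and 253 at 6 hr and 44.1 and 61.7 at 3 hr, against 129 and 122 in the control. AT4G16000 had 99 and 94.1 at 6 hr and 4.82 and 2.29 at 3 hr, against 49.9 and 75.7 in the control. These 3 genes were lowest at 3 hr, and 6 hr stood above the control as well. AT3G49790 had 642 and 601 at 6 hr and 128 and 154 at 3 hr, against 158 and 148 in the control. ZCF37 had 179 and 167 at 6 hr and 37 and 13.3 at 3 hr, against 22.2 and 10.1 in the control. For those 2 genes 3 hr lay near the control.

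Enzymes that glycosylate or oxidise small molecules moved in small numbers. Of 53 UGT glycosyltransferase genes 5 rose, 3 fell and 45 did not pass, with a median of 0.00. UGT73B1, which glycosylates flavonoids, had 465 and 533 at 6 hr and 236 and 231 at 3 hr, against 197 and 133 in the control, a rise of 1.05 (SE 0.16). The other rises were UGT85A5 at 0.89, UGT85A4 at 0.85, UGT88A1 at 0.69 and UGT85A2 at 0.65, and the falls were GT72B1 at -0.53, UGT84A3 at -0.43 and UGT78D1 at -0.39. The family held 5 to 8 calls without any 1 of the 4 arrays, and UGT85A5, UGT84A3, UGT78D1 and UGT85A2 each lost theirs in at least 1 such fit. The neighbouring loci AT1G22360 (UGT85A2) and AT1G22370 (UGT85A5) are close relatives. Of 24 cytochrome P450 genes, 19 of them from the CYP71B family that the name search found, 4 rose, 1 fell and 19 did not pass. CYP71B24 rose by 1.27, CYP71B23 by 0.86, CYP71B22 by 0.81 and CYP71B5 by 0.68, and CYP71B26 fell by 0.51. CYP71B22 had 328 and 263 at 6 hr and 203 and 126 at 3 hr, against 533 and 428 in the control. CYP71B23 had 291 and 271 at 6 hr and 120 and 181 at 3 hr, against 137 and 129 in the control. CYP71B22 therefore rose towards the control. For CYP71B23 the 3 hr arrays lay on either side of the control arrays and the 6 hr arrays above them. Each of the 5 P450 calls was lost in at least 2 of the 4 fits without 1 array. Of 14 glutathione transferase genes 0 passed by limma, with 2 at an unadjusted p under 0.05.

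Cell wall genes moved in both directions. Of 29 genes that loosen the wall 5 rose and 5 fell, with a median of 0.11, and without any 1 of the 4 arrays there were 3 to 5 calls. The falls were mostly expansins, which let wall polymers slip without cutting them. EXPA15 had 335 and 327 at 6 hr and 565 and 565 at 3 hr, against 672 and 679 in the control, a fall of 0.74 (SE 0.08) that held in all 4 fits without 1 array. EXPA16, EXPA18 and EXPB1 fell by 1.18, 1.11 and 0.63 and lost their calls in 4, 3 and 4 of those fits. The fifth was XTH32, a xyloglucan transferase, at -0.56. Among the rises 3 were xyloglucan transferases, which cut and rejoin the tethers between cellulose fibres. EXGT-A3 had 3694 and 3990 at 6 hr and 2374 and 2285 at 3 hr, against 1619 and 1685 in the control, a rise of 0.72 (SE 0.08). XTH16 rose by 0.68 and XTH19 by 0.44, and the expansins EXPA8 and EXPA9 rose by 0.58 and 0.53. EXPA8 had 373 and 377 at 6 hr and 230 and 262 at 3 hr, against 699 and 635 in the control, so both times lay below the control. Of 36 genes that build or acetylate wall polymers 6 rose, 1 fell and 29 did not pass, with a median of 0.11. The rises included CSLA03, a glucomannan synthase, at 0.85 and the acetylation genes TBL36, TBL38 and TBL32 at 0.75, 0.73 and 0.62. Each of these 4 calls was lost in 2 or 3 of the leave-one-out fits, which gave 3 to 5 calls among the 36 genes, and the 4 arrays alone left 2. The fall was TBL26, with 1370 and 1382 at 6 hr and 2396 and 2675 at 3 hr, against 1034 and 988 in the control (log2 fold change -0.87, SE 0.13).

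**Figure D4:**
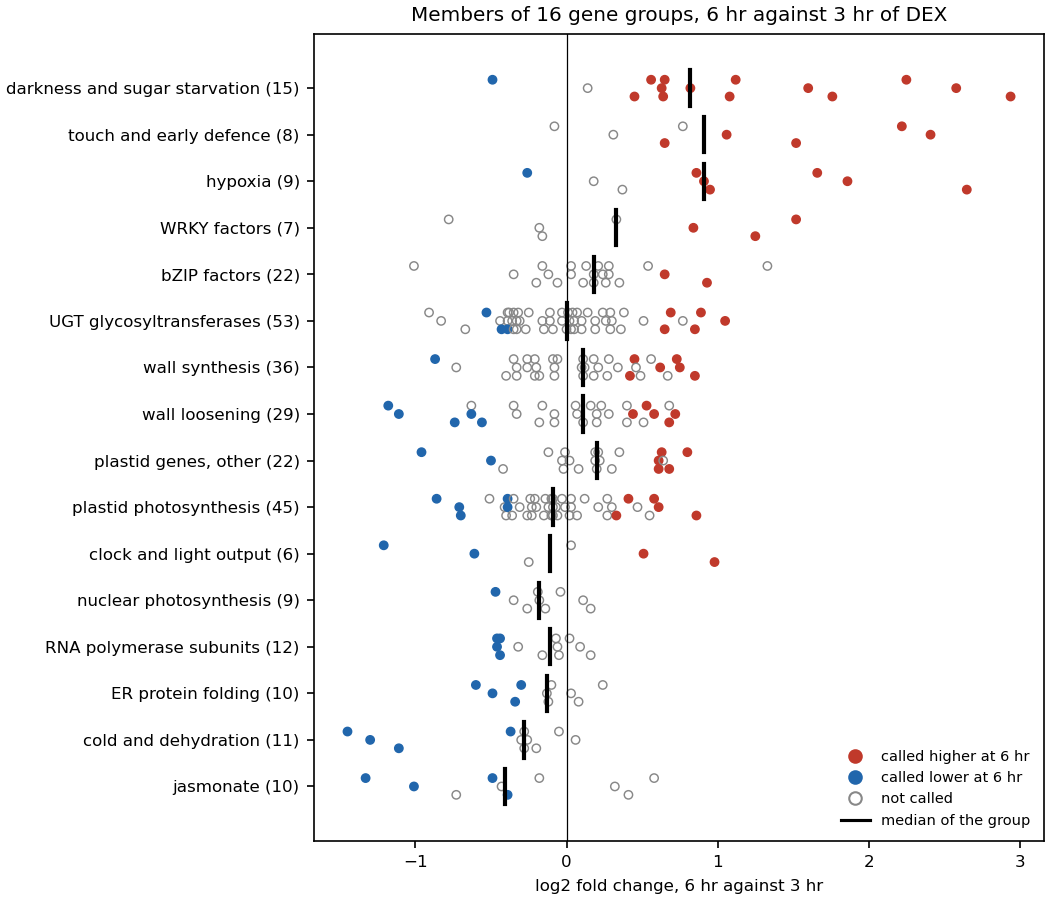
Log2 fold change at 6 hr against 3 hr of every measured member of 16 gene groups (number of members in parentheses), with filled points for calls, open points for genes that did not pass and a bar at the median of each group. The starvation, touch and hypoxia groups have medians of 0.82, 0.91 and 0.91, and the cold and jasmonate groups have medians of -0.28 and -0.41.

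Plastid-encoded genes moved in both directions. The plastid keeps its own genes for photosystem subunits, ribosomal proteins and an RNA polymerase, many of them transcribed together in operons. Of 69 measured plastid genes 10 rose and 7 fell. Among the 45 for photosynthesis 5 rose and 5 fell, with a median of -0.09. Among the 22 listed for gene expression and other functions, chiefly ribosomal proteins and RNA polymerase subunits, 5 rose and 2 fell, with a median of 0.20. Without any 1 of the 4 arrays there were 3 to 6 calls among the photosynthesis genes and 1 to 5 among the others. The labelling kit primes on poly(A) tails, which most plastid messages lack as mature transcripts, so these signals are a less direct measure than those of nuclear genes. The array's own probe set for 25S rRNA read 5775 and 5996 at 6 hr and 5850 and 4567 at 3 hr, and that for 5S rRNA at 89.8 and 97.6 at 6 hr and 122.5 and 114 at 3 hr. Their part in the plastid values was not tested.

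Neighbours in the annotation shared a direction in some stretches. psaJ, rpl33 and rps18, which lie next to each other and encode a photosystem I subunit and 2 ribosomal proteins, all rose, by 0.86, 0.68 and 0.63. psaJ had 2182 and 2442 at 6 hr and 1341 and 1196 at 3 hr, against 2158 and 1939 in the control, and kept its call in all 4 fits without 1 array. rpl33 had 5568 and 4990 at 6 hr and 3814 and 2846 at 3 hr, against 5488 and 4411 in the control. In both the 3 hr arrays were the low ones and 6 hr lay at or above the control. The next gene, rpl20, had 281 and 315 at 6 hr and 419 and 436 at 3 hr and fell by 0.50. The stretch of psbB, psbT, psbN, psbH, petB and petD did not share a direction, at -0.39, -0.31, -0.86, 0.61, 0.03 and -0.70. Of these psbB, psbN and petD fell, psbH rose, and psbT and petB did not pass. psbN is read from the opposite strand to its neighbours. In the stretch of rps14, psaB and psaA, the ribosomal protein gene rps14 had 161 and 146 at 6 hr and 302 and 325 at 3 hr, against a control mean of 386. It fell by 0.96 (SE 0.11; limma, adjusted p = 0.000226), while psaB and psaA, which encode the core of photosystem I, stood at -0.03 and 0.55 and did not pass.

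**Figure D5:**
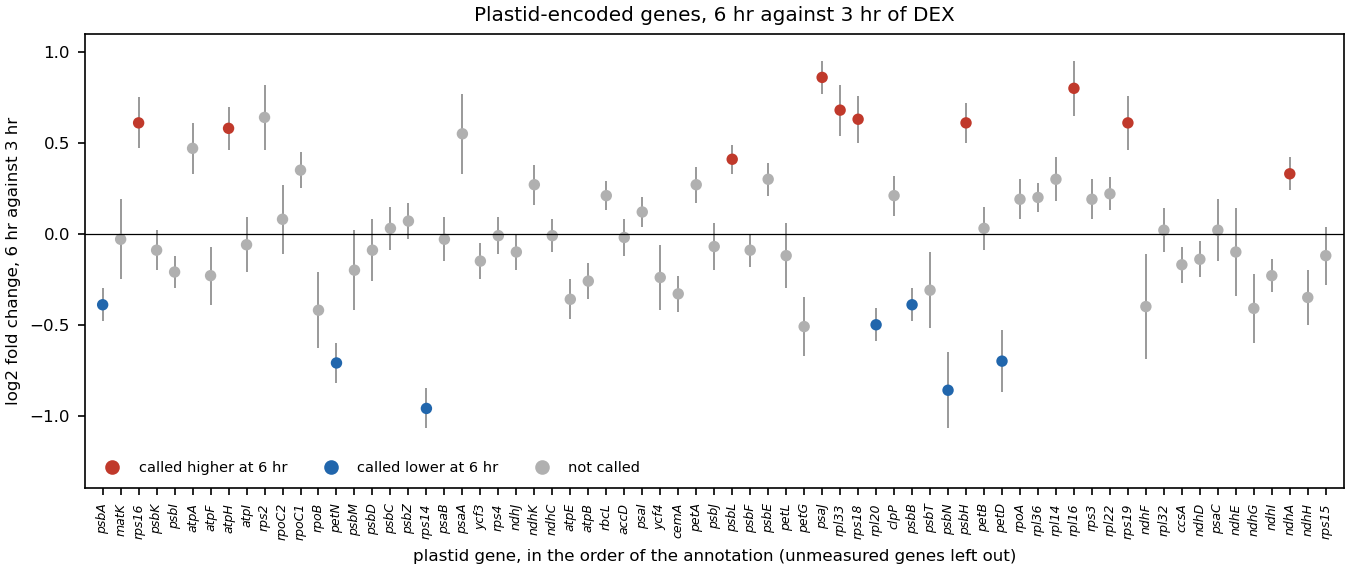
Log2 fold change with its SE at 6 hr against 3 hr of 69 plastid-encoded genes, in the order of the annotation. The neighbours psaJ, rpl33 and rps18 rose by 0.86, 0.68 and 0.63, and the lowest point is rps14 at -0.96.

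Nuclear photosynthesis genes gave 1 call in 9, lower, with a median of -0.18 that became 0.03 after quantile normalization. PSAE-1, a subunit of photosystem I, had 13949 and 15367 at 6 hr and 20234 and 20423 at 3 hr, against 18719 and 17730 in the control, and fell by 0.47 (SE 0.12). This fall was 0.20 after quantile normalization (limma, adjusted p = 0.237), and it lost its call in all 4 fits without 1 array. Genes of the clock and of light output moved both ways, with 2 of 6 higher and 2 lower. AT4G33980, which is COR28, had 585 and 591 at 6 hr and 260 and 325 at 3 hr, against 251 and 293 in the control, a rise of 0.98 (SE 0.18) that 1 of the 4 leave-one-out fits did not call. COR27, its partner in repressing evening genes, had 822 and 755 at 6 hr and 524 and 572 at 3 hr, a rise of 0.51 (SE 0.09) also missed in 1. The clock and light list held 2 or 3 calls in these fits. AT3G52740, known as BIC1, had 196 and 160 at 6 hr and 278 and 280 at 3 hr and fell by 0.61, a call lost in 3 of the 4 fits without 1 array, in the same direction as BIC2. GI, a clock gene of the afternoon, had 548 and 605 at 6 hr and 654 and 722 at 3 hr and did not pass (log2 fold change -0.25; limma, adjusted p = 0.113).

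The comparisons of 12 and 24 hr with the control use none of the 4 arrays, though they share the error estimate of the fit. Of the 1173 probe sets higher at 6 hr than at 3 hr, 189 (16.1%) were also higher at 12 hr than in the control and 8 were lower, where 1.27% of all probe sets were higher at 12 hr and 0.33% lower. The 189 were 65.4% of the higher calls at 12 hr. At 24 hr 126 of the 1173 (10.7%) were higher and 4 lower, against 0.717% and 0.242% of all probe sets, and the 126 were 77.3% of the higher calls at 24 hr. Of the 907 probe sets lower at 6 hr, 22 (2.43%) were lower and 17 (1.87%) higher at 12 hr, and 17 (1.87%) were lower and 7 (0.772%) higher at 24 hr. AT4G27280 was among those raised at both later times, at 1370 and 1268 at 12 hr and 1545 and 1828 at 24 hr. WRKY53 was not, at 109 and 128 at 12 hr and 108 and 122 at 24 hr, close to its control level.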

How the data were processed

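Whole-shoot RNA (300 ng, 3' IVT Express kit) was hybridised to ATH1 arrays. The signal intensities were used as deposited. Per the submitters' processing notes they are MAS5 values from version 1.1 of Affymetrix Expression Console. MAS5 combines the probes of each probe set and scales each array, so no further scaling was applied. Of 22810 probe sets, 64 control sets were left out and 22746 were tested. The platform table names 1 gene for 13513, several for 503 and does not list 8730. Of 13356 named genes, 11799 carry only a locus number, and their roles are given from general knowledge. A gene was read from its brightest probe set.

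Differences were tested on log2(signal + 16) with limma 3.58.1 in R 4.3.3 (lmFit, eBayes with an intensity trend), with 1 mean for each of 5 times over all 10 arrays and Benjamini-Hochberg adjustment over all 22746 probe sets at 0.05. Fold changes understate the change of dim genes. Unless a sentence says otherwise, adjusted p-values are limma's. The test was also run on 5 simulations with 200 changed probe sets each. Their noise was normal with the spread of the fit itself, and every change was a rise of a probe set that was not dim. In that setting the test recovered 90.6% of those changed by 1 (log2) and 100% of those changed by 2. There 5.6% of its calls were wrong, which is not an error rate of the calls on the real arrays.

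The genes named come from probe sets with 1 named gene. They are the 12 largest called rises and falls that were not dim and did not overlap between the times. Up to 4 called members of each gene list were added (up to 2 where none was called). Probe sets without a single gene name were not ranked, and some of them rose by more than several of these genes. Other members of a list, and the genes with locus numbers near AT1G72900, were chosen after their values were seen. The comparison, the members and the lists were chosen with earlier results of these data known. Of 47 lists with at least 5 measured genes, 40 held a call, and not every list is reported here. The alternatives were another offset (1 or 64), quantile normalization, one median for all arrays, a filter on dim probe sets, a fit on the 4 arrays alone, no trend, a replicate block and leaving out each array. No promoter, probe or protein sequence was used here, and no genome coordinate is given.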

Additional observations from a re-analysis of the deposited data

How the results depend on the processing

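The 2080 changed probe sets became 1239 (743 higher, 496 lower) in a fit on the 4 arrays alone, 1099 (730 and 369) without the intensity trend, 366 with a 2-fold minimum, and 959 to 1199 when 1 array was left out (604 to 782 higher, 355 to 426 lower). They stayed between 1888 and 2565 under the other settings, with 2152 and 2062 at offsets of 1 and 64, 1991 after quantile normalization, 2302 with one median for all arrays and 2565 without the lowest 30% of probe sets. Of 114 called genes of the naming rule, 74 kept their call on the 4 arrays alone, 68 without the trend and 63 to 75 without 1 array. The 128 calls among list members came to 74, 67 and 59 to 78 under the same settings. The fit on the 4 arrays and the fits without 1 array have fewer residual degrees of freedom by their construction. The fit without the trend kept all 10 arrays and differed only in how the error was estimated. Other causes were not tested. Probe sets called at 12 or 24 hr among the 2080 numbered 272, and 255 and 276 with an offset of 64 and quantile normalization. LHCB4.1 changed sign, from -0.26 to 0.03, after quantile normalization. AGL91, a dim MADS-box gene, stood at -0.66 without a call, at 0.04 without the first 3 hr array and at -1.36 without the second. Samples with the same replicate number showed no strong shared deviation: deviations from the group means correlated at -0.0361 to 0.0879 between groups. Whether such samples were grown or processed together cannot be told from these values. A replicate block gave 1888 calls (1078 higher, 810 lower). Array number limits the precision, with 2 a time, and 102 of the calls lie below a mean signal of 44.8.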

Other observations

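Hormone and growth genes outside the groups above gave few calls. RR16, a type-A response regulator that damps cytokinin signalling, had 396 and 397 at 6 hr and 244 and 253 at 3 hr, against 476 and 485 in the control, and was the 1 call among 6 cytokinin genes (log2 fold change 0.64). WES1, which conjugates auxin to amino acids, had 640 and 753 at 6 hr and 508 and 527 at 3 hr and was the 1 call among 12 auxin genes (0.41), lost in 3 of the 4 leave-one-out fits. Of 12 cell cycle genes only the Aurora kinase gene AUR2 was called, at -0.43, also lost in 3 of 4. HIS1-3, a drought-inducible linker histone gene, was the 1 call among 5 histone genes, at 0.69, and was lost in 3 of 4 as well.

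DFR, the dihydroflavonol reductase of anthocyanin synthesis, had 4962 and 5258 at 6 hr and 3194 and 3085 at 3 hr, against 5108 and 4937 in the control, so 3 hr was the low time (log2 fold change 0.70). TET8, a tetraspanin of extracellular vesicles, had 1623 and 1745 at 6 hr and 732 and 751 at 3 hr, against 778 and 961 in the control (1.17). AT3G21670, of the nitrate transporter family, had 848 and 864 at 6 hr and 1576 and 1633 at 3 hr, against 864 and 895 in the control, and fell by 0.89 on the log2 scale. Each of these 3 genes kept its call in all 4 leave-one-out fits. Of 12 cytoskeleton genes 0 were called by limma, with 3 at an unadjusted p under 0.05.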
